A study of Mus musculus with 6 samples.

Results

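The Hox genes encode homeodomain transcription factors that record where along the body axis a cell arose. Their members were taken as every gene symbol made of Hox, a cluster letter from a to d and a number, which gave 39 of the 24411 symbols in the count tables. They lay in 4 clusters, with 11 genes in HoxA, 10 in HoxB, 9 in HoxC and 9 in HoxD. The cells were myotubes of C2C12, an immortalised wild-type mouse myoblast line derived from adult thigh muscle, kept in growth medium with fetal bovine serum and fused into myotubes in medium with horse serum. Fully differentiated myotubes received 10 µM Sardomozide dihydrochloride, an inhibitor of the polyamine enzyme S-adenosylmethionine decarboxylase (Amd1), or the solvent DMSO for 72 h, with 3 libraries in each group. C2C12 is 1 line, and nothing in the labels tells separate cultures from repeat preparations, so a p-value here speaks only of the variation among these 6 libraries, which could be technical.

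Within a cluster the genes stand in the order of their paralogue numbers, and in the embryo low numbers are used towards the head and high numbers towards the tail and the limb tip. Genes with the same number in different clusters are paralogues, descended from 1 ancestral gene. Adult cells often keep the Hox pattern of their place of origin, held by Polycomb group repressors and Trithorax group activators, and Hox proteins bind DNA together with TALE homeodomain partners such as Pbx and Meis.

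Paralogues are most alike in the homeobox, the stretch that encodes the DNA-binding homeodomain, so these bases show how well reads can tell the genes apart. A homeobox of 180 bases was found in GENCODE M21 transcripts (GRCm38) of all 39 genes. Those of paralogue group 10 are shown because this group held the highest level, with 2 members expressed and the third, Hoxd10, listed at 0. The sequences run 5′ to 3′ on the coding strand, and capitals mark bases that differ from Hoxc10.
Hoxc10: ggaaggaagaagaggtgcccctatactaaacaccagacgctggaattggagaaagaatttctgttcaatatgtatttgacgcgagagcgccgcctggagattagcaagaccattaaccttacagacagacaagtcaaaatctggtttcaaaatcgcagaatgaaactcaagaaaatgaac
Hoxa10: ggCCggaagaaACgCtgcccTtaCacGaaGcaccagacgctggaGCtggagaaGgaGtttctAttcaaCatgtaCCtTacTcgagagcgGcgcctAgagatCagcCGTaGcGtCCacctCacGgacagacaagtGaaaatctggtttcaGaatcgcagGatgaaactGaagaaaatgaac
Hoxd10: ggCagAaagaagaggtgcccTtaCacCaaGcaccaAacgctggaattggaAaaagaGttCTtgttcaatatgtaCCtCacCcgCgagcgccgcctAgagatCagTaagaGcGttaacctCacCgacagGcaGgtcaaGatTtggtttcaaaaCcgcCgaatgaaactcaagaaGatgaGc
Hoxa10 differed from Hoxc10 at 35 of the 180 bases and Hoxd10 at 31. Over the 42 pairs of genes with the same number, the median homeobox identity was 80.6%, with a range of 67.2% to 93.9%. Over the 699 pairs with different numbers it was 60.6%. The longest run of identical bases between transcripts of Hox genes in different clusters was 52, between Hoxa6 and Hoxb4, which is shorter than the 150-base reads.

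Sequence before the transcription start was held by the RefSeq promoter table (GRCm38.p6) for 22 of the 39 genes, with 24 starts. The 250 bases before the start are shown for Hoxc4, which rose with Sardomozide and is the sole HoxC gene in that table, and for Hoxa10 and Hoxd10, an expressed gene and a paralogue listed at 0. Capitals mark CG dinucleotides, the sites of DNA methylation. The regions are chr15:103034145-103034394 on the plus strand for Hoxc4, chr6:52234940-52235189 on the minus strand for Hoxa10 (1 of its 2 starts) and chr2:74691641-74691890 on the plus strand for Hoxd10.
Hoxc4: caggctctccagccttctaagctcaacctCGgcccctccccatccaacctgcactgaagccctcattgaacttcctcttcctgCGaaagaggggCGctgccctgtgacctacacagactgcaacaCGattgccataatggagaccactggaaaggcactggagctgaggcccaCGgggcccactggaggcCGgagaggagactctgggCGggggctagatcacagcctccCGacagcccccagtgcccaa
Hoxa10: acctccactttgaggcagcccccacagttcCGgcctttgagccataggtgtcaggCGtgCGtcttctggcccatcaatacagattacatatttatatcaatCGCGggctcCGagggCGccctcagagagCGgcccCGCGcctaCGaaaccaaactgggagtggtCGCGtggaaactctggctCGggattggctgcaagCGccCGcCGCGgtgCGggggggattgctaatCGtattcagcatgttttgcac
Hoxd10: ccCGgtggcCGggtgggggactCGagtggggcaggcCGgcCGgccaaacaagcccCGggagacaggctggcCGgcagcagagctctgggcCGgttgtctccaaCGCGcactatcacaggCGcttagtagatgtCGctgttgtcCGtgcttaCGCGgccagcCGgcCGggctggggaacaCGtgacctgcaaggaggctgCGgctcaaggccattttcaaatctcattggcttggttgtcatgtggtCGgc
The starts shown for Hoxc4 and Hoxa10 lie inside the annotated genes, not at their beginning. The Hoxc4 region held 8 CG dinucleotides, and the regions shown for Hoxa10 and Hoxd10 held 20 each. The region before the other Hoxa10 start, at the beginning of the annotated gene, held 7. The median was 15.5 over the 10 HoxA starts, 12.5 over the 10 HoxD starts and 6 over all 32851 promoters. With the 50 bases after the start added, the medians were 17.5, 20 and 7, so the order of HoxA and HoxD depends on the window. The HoxD median was thus above that of all promoters, although 8 of the 9 HoxD genes were listed at 0. Across the whole 300-base windows of the table, from 250 bases before the start to 50 after it, and on both strands, CCAAT (the CCAAT box) was found in 62.5% of the 24 Hox promoters and in 37.4% of all promoters. AGGTCA, the half-site of nuclear receptors such as the retinoic acid receptors, was found in 29.2% of Hox promoters and 16.3% of all promoters. The Hoxc4 window held 1 match each to CCAAT and AGGTCA. Other AGGTCA matches lay in the window of Hoxa5 and in those of Hoxb4, Hoxd3, Hoxd4, Hoxd8 and Hoxd10, genes with few or no counts. Of the other motifs searched, TATAAA was in 16.7% of Hox and 13.6% of all promoters and CAGCTG in 16.7% and 16.3%. TGATTNAT was in 8.33% and 3.22%, and TTTATG in 20.8% and 11.9%. These matches are descriptions of sequence and were not tested as binding sites.

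Myotubes expressed the HoxA and HoxC clusters, had traces of HoxB, and had 1 HoxD count in all 6 libraries together. All 11 HoxA genes and all 9 HoxC genes had at least 10 counts in at least 3 libraries, as did Hoxb3 and no HoxD gene, so 21 of the 39 members passed. Each of the 21 had at least 10 counts in all 6 libraries, and none passed through 1 treatment group alone. Total counts over the 6 libraries were 16650 for HoxA, 252 for HoxB, 27060 for HoxC and 1 for HoxD. Together the Hox genes took 0.0215% to 0.0253% of all counts in a library. To compare genes, CPM (counts scaled by library size) were divided by the gene's exon length in kb. On that scale HoxC held 68.4% ± 0.884 (SD, n = 6 libraries) of the summed Hox level, HoxA 31.1% ± 0.933 and HoxB 0.473% ± 0.224.

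**Figure D1:**
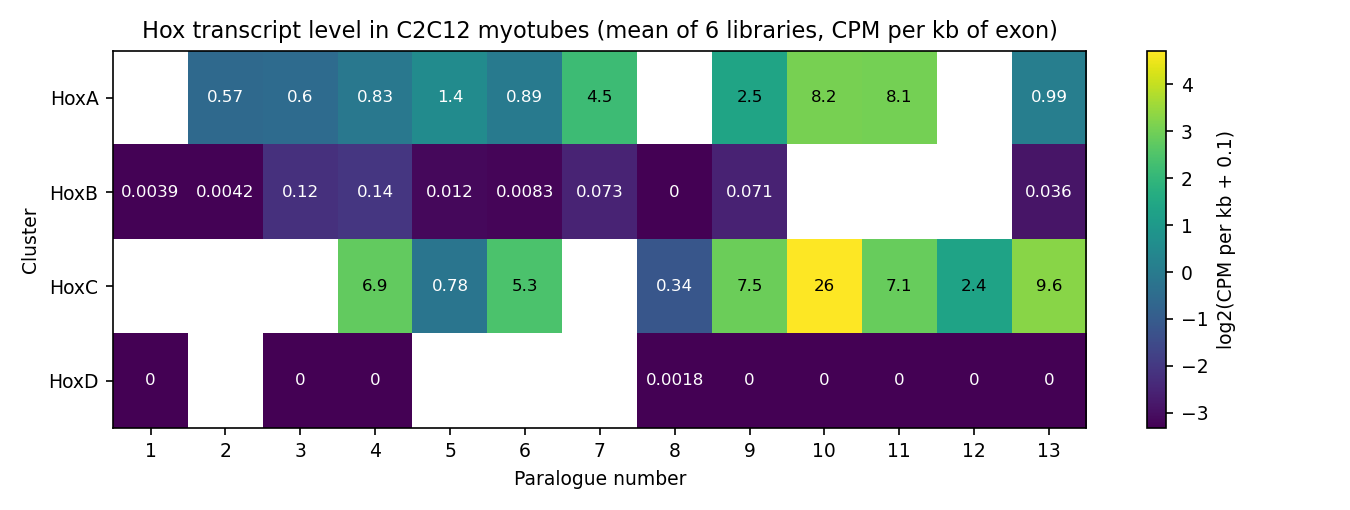
Mean transcript level of Hox genes over 6 libraries, in CPM per kb of exon, by cluster (rows) and paralogue number (columns); colour shows log2(level + 0.1) and white marks positions with no gene or not shown. HoxA and HoxC carry nearly all of the signal, Hoxc10 is highest at 26.2 CPM per kb, and the HoxD row is at or near 0.

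Hoxc10, on chr15:102966796-102971893, had the highest level at 26.2 ± 1.26 CPM per kb of exon (SD, n = 6), which stood at the 85.4th percentile of the 12597 tested genes with a known length. It was followed on the same scale by Hoxc13 (9.58), Hoxa10 (8.24), Hoxa11 (8.14), Hoxc9 (7.45), Hoxc11 (7.12), Hoxc4 (6.87), Hoxc6 (5.28) and Hoxa7 (4.46). The other 12 passing genes lay between 2.49 CPM per kb for Hoxa9 and 0.115 for Hoxb3. In this order, the ranges over 6 libraries did not overlap between Hoxc10 and Hoxc13 or between Hoxa7 and Hoxa9. Most other neighbours down to Hoxb3 overlapped in these ranges, which take both groups together. Hoxa9 and Hoxc12 (2.44) changed places between libraries, so their order is not resolved. Some overlapping neighbours did keep their order in every library, such as Hoxc4 above Hoxc6 and Hoxa5 above Hoxa13.

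The level was concentrated at high paralogue numbers. Groups 9 to 13, the posterior genes (related to the fly gene Abd-B), held 75.5% ± 2.83 (SD, n = 6) of the summed per-kb level with 9 of their 16 members passing. Group 10 alone, made of Hoxa10, Hoxc10 and Hoxd10, held 35.8% ± 2.28. Groups 1 to 3 held 2.86% ± 0.245. Within HoxC the level did not follow position: Hoxc8 (0.343 CPM per kb) and Hoxc5 (0.775) were lower than their neighbours Hoxc9, Hoxc6 and Hoxc4. Hoxc5 and Hoxc10 share 166 bases of annotated exon on the same strand, so some reads can belong to either of them. Hoxa2 shares 15% of its exon length with Gm28308 on the same strand. Hoxa11 shares 35% of its exon length with Hoxa11os on the other strand. Hoxa3, Hoxa4, Hoxa7 and Hoxb3 share 25.4%, 16%, 20.4% and 52.9% with antisense RNAs. The use of strand in counting is not given in the sources used here, so reads of these genes and of their antisense partners cannot be told apart. Hoxc4 and Hoxc6 share no exon with another gene.

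HoxB was at the edge of detection. Hoxb3, a paralogue group 3 gene, was counted 13, 14 and 16 times in the DMSO group and 27, 10 and 13 times under Sardomozide. Hoxb4 just failed the rule, counted 2, 9 and 9 times in the DMSO group and 28, 20 and 5 times under Sardomozide. The counts of Hoxb9 were 10, 0 and 3 with DMSO and 12, 4 and 5 with Sardomozide, and those of Hoxb7 were 3, 2 and 1 with DMSO and 11, 0 and 5 with Sardomozide. In each of these genes the highest count was in Sardomozide 1, and the groups overlapped. Scaled by library size, Sardomozide 1 was highest for Hoxb3, Hoxb4 and Hoxb7 and DMSO 1 for Hoxb9. Summed HoxB was 2.52 CPM in Sardomozide 1 and 0.84 to 1.34 CPM in the other 5 libraries. Hoxb13, Hoxb5, Hoxb2, Hoxb6 and Hoxb1 had 15, 7, 3, 3 and 2 counts in all, and Hoxb8 had none.

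In HoxD, on chr2:74668310-74765142, Hoxd8 had 1 count in Sardomozide 2 and the other 8 genes were listed at 0 in all 6 libraries. By counting error alone, a listed 0 is compatible with as many as 3 counts, which is 0.0823 CPM in the deepest library and 0.118 CPM in the shallowest. Genes beside the cluster were counted, with Mtx2, 60.7 kb beyond its Hoxd1 end, at 36.4 ± 1.98 CPM (SD, n = 3) with DMSO. Lnpk (listed under its older symbol, Lnp), 88.9 kb beyond the Hoxd13 end, was at 40 ± 1.69 CPM. A listed 0 need not mean that no RNA was present: Oaz1, an antizyme gene that nearly all cells express, was listed at 0 in 5 libraries and at 1 in Sardomozide 3. Hoxd3 and Hoxd4 share 62.3% and 52.3% of their exon length with other genes on the same strand.

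With Sardomozide 2 Hox genes rose, both at the anterior end of HoxC, and none fell. Of the 21 tested, 2 rose, 0 fell and 19 were not called (edgeR's quasi-likelihood test, adjusted p under 0.05 over all 13076 genes tested). Over all genes, 16.3% were called, 7.88% higher and 8.45% lower, so the count of 2 in 21 is near the background. Of the 21 estimates 15 were above 0, and the median log2 fold change was 0.20, beside -0.000823 over all genes tested. Before adjustment 8 Hox genes had p under 0.05, all higher with Sardomozide, 3 in HoxA and 5 in HoxC. Over all genes tested 14.5% were higher and 15.1% lower at that level.

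Hoxc4, on chr15:103018934-103036852, encodes a group 4 homeodomain protein used from the neck region of the embryo downwards. Its level was 13.9, 14.7 and 14.1 CPM with DMSO and 22.7, 19 and 21.6 CPM with Sardomozide. Every Sardomozide library was above every DMSO library. The log2 fold change was 0.57 ± 0.09 (SE), or 1.48-fold (adjusted p = 0.00018, edgeR, n = 3 libraries per group). Hoxc6, on chr15:102998257-103011881, belongs to group 6, used in the thoracic region. It was at 9.76, 10.4 and 11.8 CPM with DMSO and at 15.1, 15 and 14.2 CPM with Sardomozide, again without overlap. Its log2 fold change was 0.47 ± 0.10 (SE), or 1.38-fold (adjusted p = 0.0033, edgeR).

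**Figure D2:**
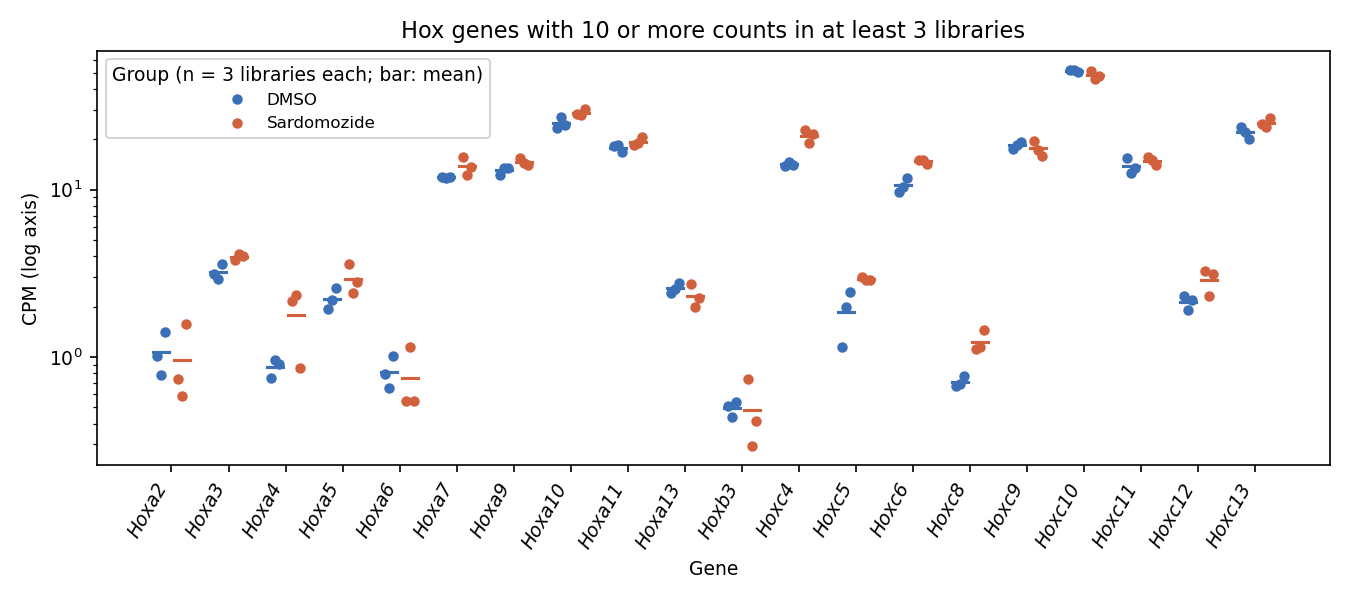
CPM on a log axis in each library for Hox genes that passed, with DMSO in blue, Sardomozide in orange and bars at the group means (n = 3 each). Hoxc4 and Hoxc6 separate by treatment and passed the test, while Hoxc10 overlaps between the groups.

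The other 2 HoxC genes below group 9 were also higher in every Sardomozide library but were not called. Hoxc5 was at 1.14, 1.99 and 2.45 CPM with DMSO and 3.02, 2.89 and 2.88 with Sardomozide (log2 fold change 0.64 ± 0.25 SE, adjusted p = 0.0835, edgeR). When 1 library was left out its adjusted p ran from 0.0435 without DMSO 3 to 0.312 without DMSO 1, where the log2 fold change was 0.40. Hoxc8 was at 0.669, 0.685 and 0.771 CPM with DMSO and 1.12, 1.14 and 1.44 with Sardomozide (log2 fold change 0.79 ± 0.34 SE, adjusted p = 0.125, edgeR). The posterior HoxC genes had smaller estimates. For Hoxc10 the 3 DMSO libraries read 51.7, 52.3 and 50.5 CPM and the 3 Sardomozide libraries 51.4, 46.2 and 48, which overlap (log2 fold change -0.09 ± 0.06 SE, adjusted p = 0.341, edgeR). The estimates were -0.07 for Hoxc9, 0.11 for Hoxc11, 0.45 for Hoxc12 and 0.20 for Hoxc13, none of them called, and each of these genes overlapped between groups.

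In HoxA none of the 11 genes was called. The largest estimate was that of Hoxa4, the HoxA paralogue of Hoxc4, at 0.748, 0.965 and 0.906 CPM with DMSO and 2.17, 2.34 and 0.864 with Sardomozide. Sardomozide 3 lay among the DMSO libraries and the other 2 were higher (log2 fold change 1.03 ± 0.35 SE, adjusted p = 0.051, edgeR). When 1 library was left out the adjusted p ran from 0.00813 without Sardomozide 3 to 0.195 without Sardomozide 2, and Sardomozide 3 was the sole library whose omission gave a call. It was 0.015 with no filter on low counts and 0.124 with limma-voom. Hoxa10, a posterior gene known for its part in limb and uterus patterning, was at 23.4, 27.3 and 24.4 CPM with DMSO and 28.5, 27.9 and 30.2 with Sardomozide, without overlap (log2 fold change 0.20 ± 0.08 SE, adjusted p = 0.0741, edgeR, with 0.0407 without DMSO 2 and 0.0789 to 0.261 without each of the others). Hoxa3, Hoxa7 and Hoxa9 were also higher in every Sardomozide library, with log2 fold changes of 0.30, 0.22 and 0.17 that did not pass (adjusted p of 0.269, 0.162 and 0.249, edgeR). Hoxa5 and Hoxa11 had estimates of 0.40 and 0.12, and Hoxa2, Hoxa6 and Hoxa13 had -0.16, -0.13 and -0.15. Hoxb3 was at 0.495 ± 0.0525 CPM (SD, n = 3) with DMSO and 0.483 ± 0.231 with Sardomozide, with a log2 fold change of -0.02 ± 0.47 (SE), an error too wide to show a change of the size seen in Hoxc4.

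Groups of libraries did not overlap for 8 of the 21 Hox genes, 4 in HoxA and 4 in HoxC, all higher with Sardomozide. Over all genes tested the groups did not overlap for 33.5%, 17% being higher and 16.5% lower with Sardomozide. Summed over its genes, HoxA was at 78.3, 84.4 and 82 CPM with DMSO and 95.6, 90.2 and 93.9 with Sardomozide. HoxC was at 137, 135 and 135 CPM with DMSO and 157, 143 and 148 with Sardomozide. Both clusters were higher in every Sardomozide library. These sums are given without a test.

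**Figure D3:**
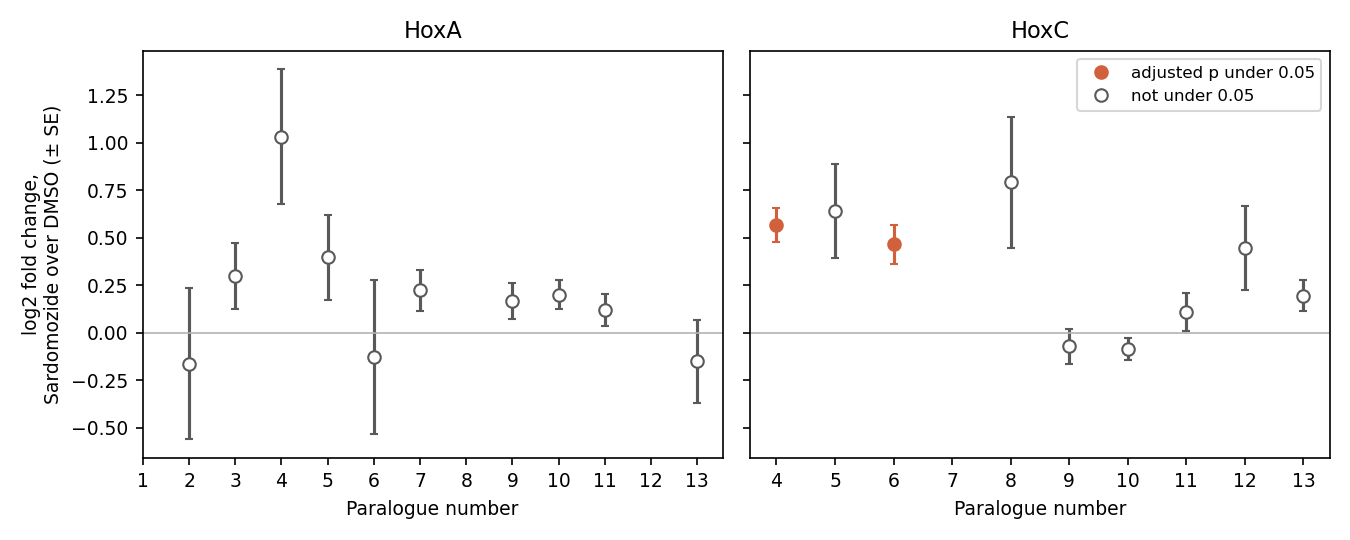
Log2 fold change of Sardomozide over DMSO with its standard error for tested HoxA (left) and HoxC (right) genes by paralogue number, with 3 libraries per group. Filled points, Hoxc4 (0.57) and Hoxc6 (0.47), had an edgeR adjusted p under 0.05, and open points did not.

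Split by paralogue number, the 12 tested genes of groups 1 to 8 had a median log2 fold change of 0.36 with 2 called, and the 9 of groups 9 to 13 had 0.12 with none called. Groups 1 to 8 held 20.8%, 21.9% and 23.7% of the summed per-kb Hox level under DMSO, against 27.6%, 27.1% and 26.1% under Sardomozide. The ranges did not overlap. These shares, and those within HoxC, include Hoxc4 and Hoxc6 and so are not separate from their calls. From DMSO to Sardomozide the mean of groups 1 to 8 went from 20.3 to 27.4 CPM per kb. That of Hoxc4 went from 5.54 to 8.21 and that of Hoxc6 from 4.43 to 6.13. Within HoxC the share of groups 1 to 8 was 17.1% ± 1.26 with DMSO and 22.8% ± 0.153 with Sardomozide (SD, n = 3). Within HoxA it was 32.9% ± 2.12 with DMSO and 34.8% ± 2.39 with Sardomozide, and there the libraries overlapped. No test of the difference between the 2 clusters or between anterior and posterior genes was made.

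Ratios within a library do not depend on library scaling. The count ratio of Hoxc4 to Hoxc10 was 0.269, 0.281 and 0.278 with DMSO and 0.441, 0.411 and 0.45 with Sardomozide. That of Hoxc6 to Hoxc10 was 0.189, 0.199 and 0.234 with DMSO and 0.293, 0.326 and 0.295 with Sardomozide. That of Hoxc13, a posterior gene that was not called, was 0.461, 0.424 and 0.395 with DMSO and 0.483, 0.513 and 0.563 with Sardomozide. In all 3 pairs every Sardomozide library was higher than every DMSO library, so this shift is not shown to be particular to Hoxc4 and Hoxc6. The 3 ratios share Hoxc10 (log2 fold change -0.09) as denominator and so are not independent. The ratio of Hoxc4 to Hoxc6, the 2 genes called, was 1.34 ± 0.132 with DMSO and 1.43 ± 0.147 with Sardomozide (SD, n = 3) and overlapped. The pairs were chosen after the values were seen and are given without a test.

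**Figure D4:**
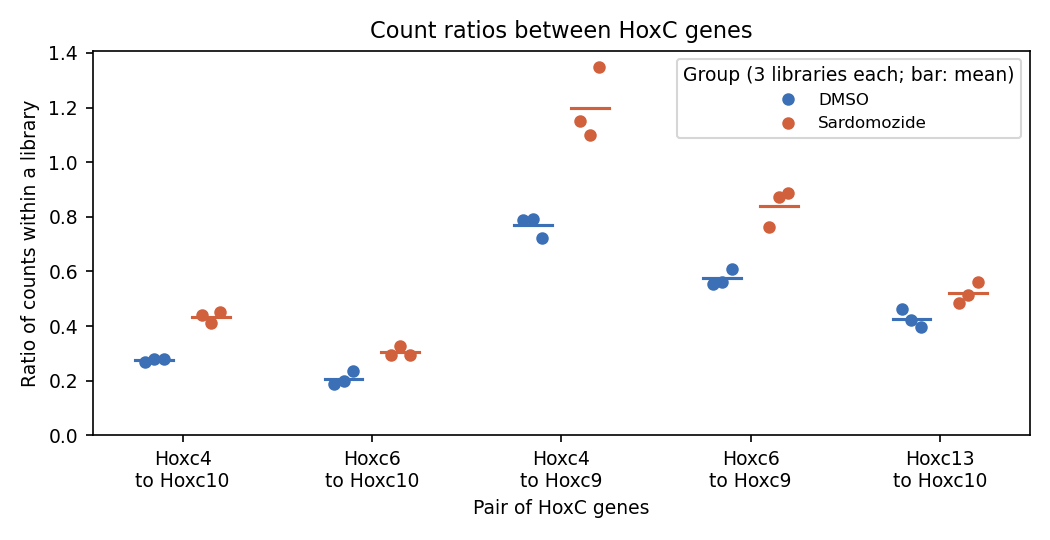
Ratio of raw counts between pairs of HoxC genes within each library (points) with group means (bars), DMSO in blue and Sardomozide in orange, 3 libraries each. Hoxc4 to Hoxc10 lies at 0.269 to 0.281 with DMSO and 0.411 to 0.45 with Sardomozide.

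Of the noncoding RNAs made within the clusters 17 were in the count files and 5 were tested. None was called by edgeR or DESeq2 (16.3% over all genes by edgeR), and 2 had an unadjusted p under 0.05. At that level 14.5% of all genes tested were higher and 15.1% lower. Hotair, made from the HoxC cluster opposite to the Hox genes and known as a partner of Polycomb proteins, was counted 84, 103 and 120 times in the DMSO group and 166, 157 and 150 times under Sardomozide. Scaled by library size the groups did not overlap, and the log2 fold change was 0.40 ± 0.17 (SE, adjusted p = 0.107, edgeR). Hotairm1, made from the anterior end of HoxA, was at 2.12 ± 0.232 CPM with DMSO and 3 ± 0.353 CPM with Sardomozide (SD, n = 3; log2 fold change 0.50, adjusted p = 0.116, edgeR). Hoxa11os, on the strand opposite Hoxa11, was the most counted of them, at 10.5 ± 1.07 CPM with DMSO and 10.1 ± 0.429 CPM with Sardomozide, with an estimate of -0.05. Of the 16 protein-coding genes flanking the clusters, 14 were tested and only Mtx2, next to HoxD, was called (16.3% over all genes). Its mean went from 36.4 ± 1.98 to 43.2 ± 1.29 CPM (SD, n = 3), a rise of 0.25 ± 0.06 (SE) on the log2 scale (adjusted p = 0.00828, edgeR). The genes nearest HoxC, Calcoco1 and Smug1, had estimates of -0.11 and 0.06 and were not called, although Calcoco1 was called without Sardomozide 1 (log2 fold change -0.18, adjusted p = 0.00764, edgeR).

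The list of TALE homeodomain genes, with Pbxip1 added, had 12 of 12 members tested. In it 0 rose and 2 fell (16.7% called, beside 16.3% of all genes), with a median log2 fold change of 0.00265. Pbx4 was low, at 0.31 ± 0.0279 CPM with DMSO (SD, n = 3). Pbxip1, a Pbx-binding protein, fell by 0.14 on the log2 scale (adjusted p = 0.0353, edgeR) and Tgif1, a TALE repressor, by 0.17 (adjusted p = 0.03, edgeR). Both calls were lost without DMSO 2, DMSO 3 or Sardomozide 2, with an adjusted p of 0.154, 0.106 and 0.101 for Pbxip1 and of 0.154, 0.0692 and 0.0909 for Tgif1. That of Pbxip1 was also lost without DMSO 1 (0.0598) or Sardomozide 3 (0.0992). Pbx2, Pbx3, Meis1 and Meis2, which are direct cofactors, were not called, with estimates between -0.18 and 0.08.

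Of 36 tested Polycomb genes 1 rose and 4 fell (13.9% called, beside 16.3% of all genes), with a median log2 fold change of 0.02. Pcgf3, a subunit of a noncanonical repressive complex 1, fell from 189 ± 3.08 to 167 ± 7.12 CPM (SD, n = 3; adjusted p = 0.00801, edgeR). Phf1, an accessory subunit of repressive complex 2, fell by 0.30 on the log2 scale (adjusted p = 0.0162, edgeR), and the adjusted p was 0.058, 0.0903 and 0.0723 without DMSO 1, DMSO 3 or Sardomozide 2. Scmh1 fell by 0.21 (adjusted p = 0.0192, edgeR), with 0.0707, 0.0885 and 0.0524 without DMSO 1, DMSO 3 or Sardomozide 3. Phc1 fell by 0.21 (adjusted p = 0.04, edgeR), and was not called without any 1 of 5 libraries (0.0828 to 0.163), the exception being Sardomozide 1, nor with DESeq2 (0.0547). Asxl1, outside the naming rule, was the gene that rose (log2 fold change 0.13, adjusted p = 0.0497, edgeR), and its call was lost without any 1 of the 6 libraries (0.0591 to 0.135) and with DESeq2 (0.0712). The catalytic and core subunits Ezh2, Suz12, Eed and Rnf2 were not called, with estimates of 0.10, 0.10, 0.14 and -0.13.

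Among 18 Trithorax genes and H3K27 demethylases 2 rose and 2 fell (22.2% called, beside 16.3% of all genes), with a median log2 fold change of 0.03. Ash1l, a histone methyltransferase, was at 144, 142 and 142 CPM with DMSO and 160, 177 and 153 with Sardomozide, and rose (log2 fold change 0.20 ± 0.05 SE, adjusted p = 0.00785, edgeR). Ash2l, a core subunit of H3K4 methyltransferases, was at 68.7, 74.5 and 73.8 CPM with DMSO and 62.9, 59.5 and 62.4 with Sardomozide, and fell (log2 fold change -0.23 ± 0.05 SE, adjusted p = 0.004, edgeR). Neither pair of groups overlapped. Wdr5 rose (log2 fold change 0.18, adjusted p = 0.0273, edgeR) and Setd1b fell by 0.18 on that scale (adjusted p = 0.0322, edgeR). The call of Wdr5 was lost without DMSO 1, DMSO 2, DMSO 3 or Sardomozide 2 (adjusted p 0.0504 to 0.118). That of Setd1b was lost without any 1 of 5 libraries, Sardomozide 1 excepted (0.0628 to 0.119). Kmt2a, a well known activator of Hox genes, was not called (log2 fold change 0.08, adjusted p = 0.711, edgeR).

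Retinoic acid, a vitamin A derivative, switches on anterior Hox genes through its receptors in the embryo. Of 13 tested genes of this pathway 1 rose and 5 fell, with a median log2 fold change of -0.18. That is 46.2% called, beside 16.3% of all genes, of which 8.45% were lower. The receptor Rarg was at 101, 99.5 and 107 CPM with DMSO and 84.3, 84 and 81.4 with Sardomozide, without overlap, and fell by 0.30 ± 0.05 (SE) on the log2 scale (adjusted p = 0.000143, edgeR). Crabp2, which carries retinoic acid to the nucleus, fell from 57.6 ± 4.57 to 46.7 ± 2.83 CPM (SD, n = 3; adjusted p = 0.00304, edgeR), and Aldh1a3, which makes retinoic acid, from 13.7 ± 0.685 to 10.1 ± 0.964 CPM (adjusted p = 0.00606, edgeR). Outside the naming rule, Rara fell by 0.20 (adjusted p = 0.0158, edgeR) and Rdh10, which oxidises retinol, rose by 0.27 (adjusted p = 0.0475, edgeR). The call of Rara was lost without DMSO 1, DMSO 3 or Sardomozide 3 (0.0627 to 0.0793), and that of Rdh10 without DMSO 1, DMSO 2, Sardomozide 1 or Sardomozide 3 (0.0705 to 0.252) and with DESeq2 (0.0554). Cyp26a1 and Cyp26b1, which break retinoic acid down, were not called. Whether these changes had a part in those of Hoxc4 and Hoxc6 was not tested.

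**Figure D5:**
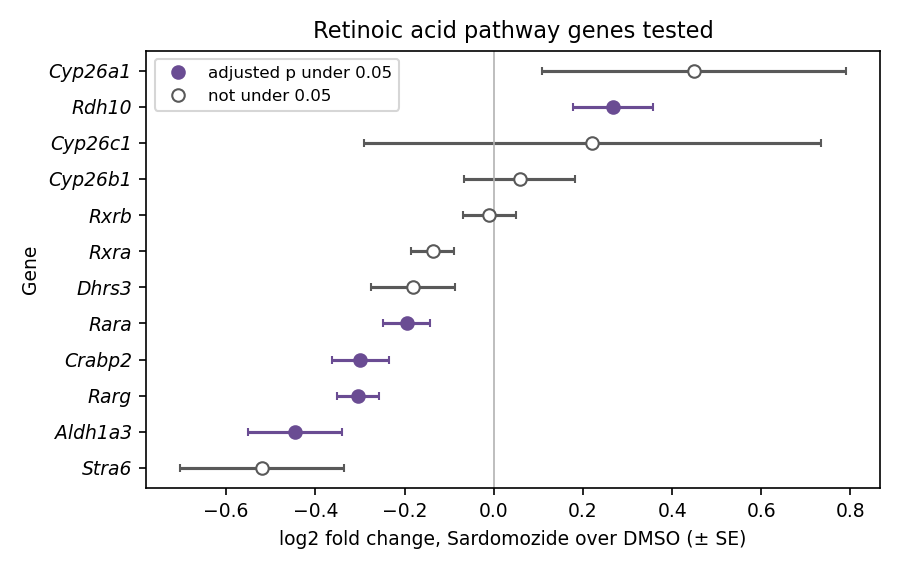
Log2 fold change of Sardomozide over DMSO with its standard error for tested genes of the retinoic acid pathway, 3 libraries per group. Filled points had an edgeR adjusted p under 0.05: Rarg (-0.30), Crabp2, Aldh1a3 and Rara lie below 0, and Rdh10 lies above.

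Other known upstream regulators included the Cdx factors, of which Cdx2 and Cdx4 were listed at 0. Of 9 tested genes 2 rose and 1 fell (33.3% called, beside 16.3% of all genes). Egr2, which activates Hox genes of groups 2 and 3 in the hindbrain, was at 43.1, 43.8 and 47.9 CPM with DMSO and 36.4, 30.1 and 30.1 with Sardomozide, without overlap, and fell by 0.48 ± 0.07 (SE) on the log2 scale (adjusted p = 0.000163, edgeR). Tgfbr1, a receptor for Gdf11, was at 36.2, 38.8 and 36.1 CPM with DMSO and 48.3, 46.6 and 43.3 with Sardomozide, and rose (log2 fold change 0.32 ± 0.06 SE, adjusted p = 0.00139, edgeR). Gdf11 itself, a signal for posterior identity, was not called (log2 fold change -0.08, adjusted p = 0.496, edgeR).

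Other factors of limb position were also looked up, without a test against the posterior Hox pattern. Tbx4, which marks the hindlimb, was counted 107, 122 and 115 times in the DMSO group and 107, 120 and 86 times under Sardomozide. Scaled by library size, Tbx4 was at 4.21, 3.8 and 3.86 CPM with DMSO and 2.93, 3.51 and 2.75 with Sardomozide. It was lower in every Sardomozide library but was not called (log2 fold change -0.36 ± 0.18 SE, adjusted p = 0.181, edgeR). Tbx5, which marks the forelimb, and Pitx1, a second hindlimb factor, were listed at 0, which need not mean that no RNA was present. Of 12 tested genes of this list 2 rose and 1 fell (25% called, beside 16.3% of all genes). Eya4, a coactivator of muscle genes, rose from 72.6 ± 1.4 to 84.7 ± 3.88 CPM (SD, n = 3; adjusted p = 0.00404, edgeR). Tbx15 fell by 0.16 on the log2 scale (adjusted p = 0.0236, edgeR), with an adjusted p of 0.0724, 0.141 and 0.0988 without DMSO 2, DMSO 3 or Sardomozide 2.

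The 6 libraries held 25496323 to 36709804 counts. DMSO 1 stood apart on the second principal component, at 19.2 against -8.72 and -12.5 for the other DMSO libraries. Hoxc4 and Hoxc6 remained called without it and without each other library in turn, with log2 fold changes of 0.51 to 0.64 and of 0.41 to 0.55. Myotube markers were present, with Acta1 at 4780 CPM and Myh3 at 4160 CPM with DMSO. Of the 12 myotube markers Myog rose and Myh8 fell (16.7% called, beside 16.3% of all genes). Among markers of other states, Id2 of 6 tested myoblast genes rose (16.7% called), while the median log2 fold change of that list was -0.061. The summed CPM of the myoblast list ran from 855 to 876 with DMSO and from 801 to 849 with Sardomozide. Most of that sum came from Cdh15, which was not called, at 642 ± 10.9 and 589 ± 24.4 CPM (SD, n = 3). Of the other tested members Pax7 and Id2 had log2 fold changes above 0 (0.09 and 0.30). Those of Myf5, Id1 and Id3 were below 0 (-0.15, -0.00149 and -0.12). Mki67 of 6 cycling genes rose (16.7% called). The summed CPM of the cycling list ran from 295 to 321 with DMSO and from 312 to 364 with Sardomozide. Of 4 tested fibroblast genes Dcn fell (25% called). The summed CPM of the fibroblast list ran from 7560 to 9060 with DMSO and from 7890 to 8930 with Sardomozide, nearly all of it from the collagens Col1a1 and Col3a1, while Thy1, Lum and Tcf21 were at or near 0. Of the 3 bone or cartilage genes tested Bglap rose (33.3% called), from 0.0658 to 0.395 CPM, a level near that of 3 counts. Fat cell genes were at or near 0, as were most endothelial and blood genes. The part of these shifts in the Hox results was not tested. In such bulk RNA, a change in the share of cells of a kind and a change of RNA per cell cannot be told apart.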

How the data were processed

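For each of the 6 libraries the authors deposited unnormalized counts by gene symbol. As builds the submitters' processing notes list GRCm38 and mm10, and as tools DESeq2, STAR and StringTie. Not given in the sources used here are tool versions, gene annotation, strand use and how multiply mapped reads were treated. Total RNA was sequenced as paired reads of 150 bases, per the labels' protocols.

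Genes were filtered with filterByExpr (minimum count 10, total 15), scaled by TMM and compared in R 4.3.3 with edgeR 4.0.16 (robust two-sided quasi-likelihood test, treatment alone), with Benjamini-Hochberg adjustment over 13076 genes. Standard errors were computed from each gene's F statistic and fold change. Lengths are unions of exons in GENCODE M21. Replicates of a group differed by more than sampling noise (chi-square per degree of freedom 5.45 to 16.1). On simulated data 12985 genes passed the filter. Among these the test called 81% of the 100 genes changed 1.5-fold and 95.9% of the 98 changed 2-fold, and 7.89% of its calls were false. Changed genes were drawn over all expression levels, so these shares need not hold for Hox genes with low counts. Alternatives used DESeq2 1.42.0, limma-voom (limma 3.58.1), other scaling, filters and designs, and left out each library. The Hox members and the gene lists were chosen with earlier results of these data known. Named genes are all Hox genes, the flanking genes and, per list, the called members up to the 4 with the smallest adjusted p (the 2 with the smallest p where none was called), with further members named for their level. A few of these genes are not reported here.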

Additional observations from a re-analysis of the deposited data

How the results depend on the processing

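Of the 21 tested Hox genes 15 kept their direction and side of the threshold, Hoxc4 and Hoxc6 among them. For 14 of them this covers all 16 alternatives, and for Hoxc8 15, since the stricter filter leaves it out. The count of Hox genes that rose was 2 or 3 and that of genes that fell was 0 throughout. Hoxa4, Hoxa10 and Hoxc5 each passed in at least 1 alternative, and Hoxa2, Hoxa6 and Hoxb3, none of them called, changed sign when some libraries were left out, with log2 fold changes from -0.68 to 0.10, from -0.57 to 0.057 and from -0.48 to 0.24. Leaving out a library gave 620 to 927 genes that rose and 706 to 1025 that fell over all genes, with the fewest without DMSO 1 (620 and 706) and 672 that rose without DMSO 3. It gave 0 to 2 falling TALE genes, 0 to 2 rising and 1 to 5 falling Polycomb genes, 1 to 3 rising and 1 to 2 falling Trithorax genes, 0 to 1 rising and 3 to 5 falling retinoic acid genes, 1 to 2 rising upstream regulators and 0 to 1 falling limb factors. The rising Polycomb gene was lost (0 genes) with DESeq2, RLE factors, upper-quartile factors, limma-voom and without robust estimation, and Asxl1 was not called with no filter either (adjusted p = 0.0532, edgeR), where a different gene made the count. Also lost was the rising retinoic acid gene (0 genes) with DESeq2, without scaling factors and without robust estimation. With the stricter filter 1 upstream regulator rose. The cause of these losses was not tested.

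Deviations of same-numbered libraries correlated at 0.0219, -0.0233 and -0.0178, and those of differently numbered libraries at -0.0496 to 0.0712. Same-numbered libraries thus showed no common deviation. The labels do not say whether libraries were paired, and these correlations cannot exclude it. With the replicate number as a block, Hoxc4 and Hoxc6 stayed called (adjusted p = 0.00075 and 0.00735, edgeR), 855 genes rose and 965 fell. In that fit 0 TALE genes fell, 0 Polycomb genes rose and 1 Trithorax gene rose.

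Of the flanking genes, none of those that follow was called, and they changed sign when a library was left out, with ranges of -0.036 to 0.081 for Snx10, -0.106 to 0.014 for Hibadh, -0.013 to 0.096 for Tax1bp1, -0.464 to 0.138 for Skap1, -0.074 to 0.047 for Atp5g2, -0.00284 to 0.120 for Smug1, -0.010 to 0.045 for Cbx5, -0.00557 to 0.067 for Atp5g3 and -0.057 to 0.068 for Hnrnpa3. Hnrnpa3 was also at -0.00863 with limma-voom, -0.000214 with the stricter filter and -5.58e-05 with upper-quartile factors. With the longest transcript as length, HoxA held 34.1% and HoxC 65.4% of the Hox level, and with no length correction 37.8% and 61.6%. The minimum of 10 counts in 3 libraries was met by 21 Hox genes, and 16 to 26 under other minimums. Depth limits HoxB and HoxD, where 3 counts correspond to 0.0823 to 0.118 CPM.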

Other observations

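Of 9 factors of head muscle 5 were tested. Tbx1 was at 26.2 ± 2.47 CPM with DMSO and 25.8 ± 1.24 CPM with Sardomozide (SD, n = 3), and Msc at 10.2 ± 0.465 and 9.7 ± 0.72 CPM. Lhx2 and Nkx2-5 were low, at 0.664 ± 0.292 and 1.06 ± 0.222 CPM with DMSO, Alx4 and Isl1 had too few counts to be tested, and Tcf21 and Otx2 were listed at 0. None of the 5 tested genes was called by edgeR or DESeq2 (16.3% over all genes by edgeR), and 1 had an unadjusted p under 0.05. At that level 14.5% of all genes tested were higher and 15.1% lower. The ParaHox genes Gsx1, Gsx2 and Pdx1 and the Hox-linked genes Evx1 and Evx2 were listed at 0 in all 6 libraries.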
